A study of Mus musculus with 3 samples.

Results

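Small nucleolar RNAs (snoRNAs) and small Cajal body-specific RNAs (scaRNAs) were followed in RNA held on chromatin in mouse macrophages. The members are the genes of type snoRNA or scaRNA in GENCODE M21 whose name starts with Snord (box C/D), Snora (box H/ACA) or Scarna (Cajal body). There were 149 such genes of 55536 annotated genes, and of 1558 genes of these types under any name. They comprised 98 Snord, 42 Snora and 9 Scarna genes, with 146 distinct names because Snord80, Snora43 and Snora16a each name 2 genes. Of the Scarna genes, 7 are annotated as scaRNA and 2 (Scarna9 and Scarna10) as snoRNA. Of the Snord genes, 17 belong to the Snord116 cluster. No gene named Snord115 was among the members.

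The libraries came from bone-marrow-derived macrophages of C57BL/6J mice, primary cells grown from marrow. All 3 libraries (biological replicates 1, 2 and 3) had 1 treatment. The cells received Lipid A, the lipopolysaccharide moiety recognised by TLR4, at 100 ng/ml over 12 h, were washed free of it over a further 12 h, and met it again at 100 ng/ml over 25 min. RNA of the chromatin fraction was depleted of ribosomal RNA before sequencing, with an input of 1 µg for replicate 1, 250 ng for replicate 2 and 500 ng for replicate 3. The labels give a library size range of 250 to 400 for each replicate. No untreated library was analysed here, so the values describe levels in this state. The spread is that between these 3 libraries. The labels give them the same donor identifier and do not assign them to separate animals.

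Box C/D snoRNAs bind fibrillarin, NOP56, NOP58 and SNU13 and guide 2'-O-methylation of ribosomal RNA, while box H/ACA snoRNAs bind dyskerin, GAR1, NHP2 and NOP10 and guide pseudouridylation. The scaRNAs do the same for spliceosomal snRNAs in Cajal bodies, where a CAB box retains many of them. Most vertebrate snoRNAs are cut from introns of host genes, many of which encode ribosomal or nucleolar proteins, and a few have their own promoter. A few, among them Snord118 (U8), Snord13 (U13), Snord14 (U14), Snord22 (U22) and Snora73 (U17), act in cleavage of the ribosomal RNA precursor.

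The sequences of 9 members whose values the results turn on are shown first, taken from the annotation's transcripts and placed on mm10. The box C/D members are Snord17 (chr2:144265979-144266216, minus strand), the longest Snord and the one with the highest mean CPM; Snord15b (chr7:99479563-99479707, minus strand) and Snord22 (chr19:8725866-8725991, plus strand), which had the highest mean TPM of all members in the first quantification described below; and Snord21 (chr5:107904555-107904648, plus strand) and Snord89 (chr1:39548745-39548854, minus strand), which had counts in only 1 of the 2 deposited quantifications. Capitals mark the C box word TGATGA within the first 20 bases and the D box word CTGA within the last 15 bases, where present.
Snord17: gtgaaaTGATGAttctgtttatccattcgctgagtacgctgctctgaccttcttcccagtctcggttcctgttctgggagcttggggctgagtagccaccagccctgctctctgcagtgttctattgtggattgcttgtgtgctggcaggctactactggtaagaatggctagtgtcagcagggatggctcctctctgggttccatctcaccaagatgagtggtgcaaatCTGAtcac
Snord15b: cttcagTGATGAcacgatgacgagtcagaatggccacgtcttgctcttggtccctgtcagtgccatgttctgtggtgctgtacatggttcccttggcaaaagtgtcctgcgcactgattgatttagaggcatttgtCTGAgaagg
Snord22: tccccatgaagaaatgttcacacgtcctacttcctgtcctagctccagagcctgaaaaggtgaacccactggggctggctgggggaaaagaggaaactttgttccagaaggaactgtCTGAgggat
Snord21: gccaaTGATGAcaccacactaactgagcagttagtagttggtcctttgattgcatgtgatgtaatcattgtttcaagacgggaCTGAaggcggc
Snord89: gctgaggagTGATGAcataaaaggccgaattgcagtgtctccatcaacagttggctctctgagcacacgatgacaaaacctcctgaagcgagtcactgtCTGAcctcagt

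The box H/ACA members shown are the near-identical pair Snora73b (chr4:132352322-132352526, minus strand) and Snora73a (chr4:132352775-132352979, minus strand), and Snora26 (chr5:74093530-74093650, plus strand), the shortest Snora. The pair differed by 7 edits over 205 bases, an identity of 96.6%. Capitals mark an H box word ANANNA nearest the centre and the ACA word 3 bases from the end.
Snora73b: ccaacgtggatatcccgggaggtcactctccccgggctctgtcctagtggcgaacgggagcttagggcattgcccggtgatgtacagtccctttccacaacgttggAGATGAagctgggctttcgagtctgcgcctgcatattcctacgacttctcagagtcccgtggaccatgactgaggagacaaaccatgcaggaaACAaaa
Snora73a: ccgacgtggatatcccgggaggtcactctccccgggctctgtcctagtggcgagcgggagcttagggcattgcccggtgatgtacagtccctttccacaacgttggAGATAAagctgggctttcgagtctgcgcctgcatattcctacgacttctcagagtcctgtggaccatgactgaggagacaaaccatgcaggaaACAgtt
Snora26: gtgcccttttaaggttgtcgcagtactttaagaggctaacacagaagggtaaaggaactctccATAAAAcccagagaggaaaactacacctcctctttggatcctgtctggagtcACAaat

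Scarna6 (chr1:87784556-87784820, plus strand) is shown as a Cajal body member, with the CAB-type word TGAG in capitals. It also holds TGATGA near its start and, overlapping the marked word, CTGA near its end.
Scarna6: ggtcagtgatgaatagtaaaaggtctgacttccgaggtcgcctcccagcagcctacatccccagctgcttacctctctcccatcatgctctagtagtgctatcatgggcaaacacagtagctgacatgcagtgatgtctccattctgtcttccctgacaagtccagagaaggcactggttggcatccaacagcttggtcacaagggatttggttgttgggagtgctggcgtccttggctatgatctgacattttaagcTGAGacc

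Searched on the given strand, TGATGA lay within the first 20 bases in 70 of 98 Snord genes, and CTGA within the last 15 bases in 92. Both were present in 68 Snord genes (69.4%). RefSeq promoter windows (GRCm38.p6, 32851 genes) cut to the same lengths held both in 0.0254%. In the Snora class, ACA stood 3 bases from the end in 35 of 42 genes and ANANNA lay within 25 bases of the centre in 39. The latter word is loose: 50.6% of windows and 75 of 98 Snord genes held it too. Both were present in 33 genes (78.6%), against 0.907% of promoter windows. No Snord gene had the ACA word at its end and no Snora gene the C box word in its first 20 bases. The Scarna class was mixed, with C and D words in 4 of 9 genes and H and ACA words in 1. TGAG was found in 8 of 9 Scarna genes, against 49.6% of windows cut to the lengths of the 7 that measure up to 300 bases. It was also found in 82 of 98 Snord genes, where it can overlap CTGA, against 33.7% of windows. Snord22 and Snord118 carried the D box word but not TGATGA in the window searched. A match or its absence describes letters in these windows only.

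Each library has 2 deposited quantifications. The first is a gene table with expected counts and TPM (counts divided by an effective length and scaled to a fixed library total), in columns named as RSEM writes them. The second is a transcript table in columns named as kallisto writes them, summed per gene here. Annotated genes held 13502401 to 17848798 counts per library in the first and 20661903 to 32013772 in the second. CPM below is counts scaled to these totals. A count of 0 allows up to 3 counts, or 0.168 to 0.222 CPM in the first and 0.0937 to 0.145 CPM in the second. Intervals and this limit cover counting error only. The ribosomal RNA locus on chromosome 17 (Gm26917, Gm42418 and CT010467.1) took 11.1%, 31.8% and 24.8% of the first counts in replicates 1, 2 and 3, which lowers CPM of all other genes unequally. All 8 macrophage markers reached a TPM of 1 in every library, and none of 6 neutrophil, 5 T cell, 4 B cell, 6 fibroblast or 5 neuron markers did in the first quantification. In the second, 1 neutrophil, 2 T cell and 1 fibroblast marker passed. Summed marker TPM in the first was 986 to 1059 for macrophages and 0.01 to 1.5 for each other list. In bulk RNA, fewer cells with an RNA and less RNA per cell cannot be told apart.

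Most of the signal lay in a few members. By counts of the first quantification, 11 members held 99.2% ± 0.311 (SD, n = 3) of the counts of all 149. The same 11 led the second quantification, with 92.5% ± 1.19. They were Scarna10, Scarna2, Scarna13 and Scarna6, Snord17, Snord15b, Snord22 and Snord15a, and Snora73b, Snora73a and Snora74a. All 149 members together held 0.191% ± 0.0214 of annotated counts.

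Scarna10 (U85), which guides both kinds of modification on U5 snRNA, was the member with the highest counts in every library. It had 17013, 11934 and 14856 first-quantification counts in replicates 1, 2 and 3, or 1260, 669 and 833 CPM. This was 60.5%, 33.7% and 49.8% of all member counts, highest in replicate 1 and lowest in replicate 2. The gene is 325 bases long (chr6:125186359-125186683, minus strand) and lies within Ncapd2, a condensin subunit gene, in an intron of 3 transcripts and an exon of 1 transcript annotated as retained intron. Of its 31-base words, 85.8% also occur in transcripts of Ncapd2 or Gm28967. Gm28967 was listed at 0 counts in every library and Ncapd2 had 107, 281 and 208, so counts assigned to these genes were far below those of Scarna10.

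Scarna2 guides methylation of U2 snRNA and had no host gene in the annotation. Its counts were 1825, 9746 and 5284, or 135, 546 and 296 CPM. Replicate 2 stood 4.04 times above replicate 1, the opposite order from Scarna10. Scarna13 (U93), in an intron of Snhg10, had 653, 1076 and 781 counts, a mean of 50.8 ± 8.5 CPM (SD, n = 3). Scarna6, in an intron of Atg16l1, an autophagy gene, had 465, 795 and 744 counts, or 40.2 ± 5.22 CPM. For these 2 the highest library was 1.38 and 1.29 times the lowest. The other 5 Scarna genes had no first-quantification count except Scarna3a, with 0, 4 and 0. Second-quantification counts were higher: Scarna17 had 64, 54 and 59 counts, Scarna9 had 14, 53 and 48, and Scarna3b had 20, 25 and 20.

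Among the box H/ACA members, Snora73b and Snora73a came first. Snora73b had 1240, 2635 and 1375 counts (105.5 ± 37.2 CPM) and Snora73a had 838, 3277 and 1031 (101.2 ± 71.4 CPM). Both were highest in replicate 2, and the order of the pair turned there: Snora73a was above Snora73b in replicate 2 and below it in replicates 1 and 3. Both lie within Rcc1, a chromatin-binding exchange factor gene, on the strand opposite to Gm17300. All their 31-base words recur in other annotated transcripts, each other, Snhg3 and Gm26448 among them, so the split between the copies is uncertain. Gm26448 had 285, 367 and 223 counts. Snhg3, the noncoding gene known as the host of U17, had 11.9, 10.5 and 12.4.

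Snora74a (U19), which guides pseudouridylation of 28S ribosomal RNA, had 564, 825 and 600 counts (40.6 ± 6.37 CPM). Snora68 (U68) had 15.8, 127 and 34.7 counts, or 1.17, 7.1 and 1.95 CPM. Replicate 2 was 6.06 times the lowest library. Snora26, in the noncoding host Dancr, had 40.0, 16 and 18 counts and was highest in replicate 1 instead. Its words all recur in other annotated transcripts, those of Dancr, Gm22786 and Gm24233 among them. Gm22786 had 3, 19 and 7 counts, Gm24233 had 11, 46 and 13, and Dancr had 8, 27.01 and 25.01, all highest in replicate 2. The split between these genes is uncertain, and so is the order of the libraries for Snora26. Snora78, in Snhg9, had 2, 62.0 and 5 counts. Snora64, in Rps2, had 0, 7.67 and 2.90 counts and stayed near the limit that a count of 0 allows.

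Among the box C/D members, 5 of 98 had any first-quantification count. Snord17, in an intron of Snx5, a sorting nexin gene, had 2261, 2367 and 1915 counts (135.8 ± 30.1 CPM). Snord15b, in Rps3, a ribosomal protein gene, had 2450, 1220 and 1722 (115.5 ± 58.8 CPM), and Snord15a in another intron of Rps3 had 370, 374 and 469 (24.9 ± 3.45 CPM). The 2 Snord15 genes share 64.2% of bases by edit distance, and Snord15b lies in an exon of some Rps3 transcripts while Snord15a lies only in introns. Snord22, in Snhg1, had 290, 752 and 883 counts (37.7 ± 14.5 CPM). Snord118, which has no host gene, had 1, 2 and 0. Past these 5, all Snord genes tied at 0.

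**Figure D1:**
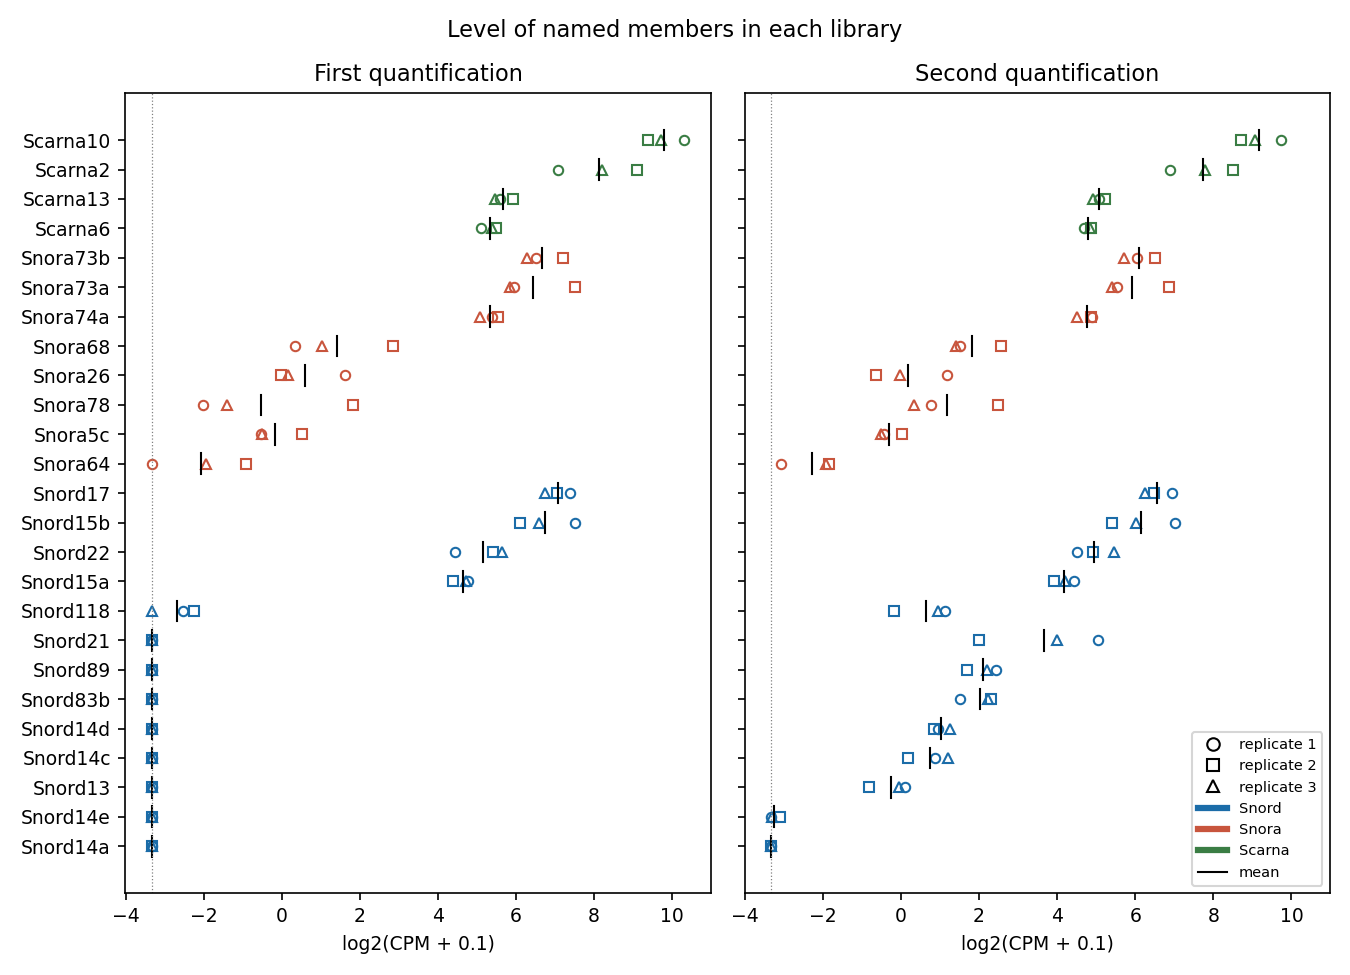
Level of 25 named members as log2(CPM + 0.1), with the first quantification on the left and the second on the right. Each marker is 1 library, the black tick is the mean of the 3 log values, and the dotted line is a count of 0. Snord21, Snord89, Snord83b, Snord14c, Snord14d and Snord13 lie on that line on the left and above it on the right.

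The box C/D class held more genes with counts in the second quantification. Snord21, in Rpl5, had 680, 124 and 475 counts, against 0 in every library of the first. Its libraries spanned 8.52 times in CPM, and its words all recur in Rpl5, which had 416, 605 and 621 counts. Snord89, in an intron of the noncoding gene Gm15832, had 110, 101 and 135 counts and shared no word with another transcript. Snord83b, in an intron of Rpl3, had 57, 155 and 138. These 3 had the most negative differences between the quantifications among members with at least 10 counts in every library of either.

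The members with a role in ribosomal RNA cleavage were low or near 0 in counts apart from Snora73a, Snora73b and Snord22. Like every Snord and Snora gene, they are shorter than the low end of the library size range (250). The part of this in their counts was not tested. Snord118 had 43 counts in replicate 1 (95% exact Poisson interval 31.1 to 57.9), 25 in replicate 2 (16.2 to 36.9) and 55 in replicate 3 (41.4 to 71.6) in the second quantification. Snord13, which also has no host gene, had 20, 15 and 26. Snord14d and Snord14c, 2 copies in Hspa8 (a heat shock protein gene) that share 97.7% of bases, had 37.7, 54.6 and 68.6, and 35.7, 33.2 and 66.5 counts. All their words recur in Hspa8, so these counts are uncertain. Snord14e, also in Hspa8, stayed under 1 count in every library, and Snord14a, in Rps13, was at 0. All 17 Snord116 genes, a cluster known from neurons, were at 0 counts in both quantifications and all libraries. Members and other genes of 100 bases or less all had 0 counts in the first, and Snord116 genes measure 94. Most of them share all their 31-base words with their host Snhg14 and other copies. Snhg14 had 626, 489 and 577 counts in the first quantification, so the values of 0 do not tell whether the cluster was transcribed. A count of 0 allows up to 3 counts per library.

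Per length, by TPM of the second quantification, Scarna10 came first with 7167, 3297 and 5077 TPM, above Snord15b with 6231, 1792 and 2626 in 3 of 3 libraries, although the ranges of these members overlapped. Snord22 followed at 1777 ± 387, Snord17 at 1487 ± 385, Snora73b at 1451 ± 311, Snora73a at 1397 ± 754, Scarna2 at 1300 ± 618 and Snord21 at 1252 ± 1136 TPM. Neighbours among these 6 differed by less than their SDs.

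The 3 name classes ranked differently by counts and by TPM. They also differ in length: Snord and Snora genes measure at most 238 and 205 bases. Scarna genes measure 70 to 414 bases with a median of 140, and Scarna10, Scarna2 and Scarna6 measure 325, 414 and 265 bases. All Snord and Snora genes are thus shorter than the low end of the library size range (250). In the class shares, class and length cannot be told apart, and the part of length was not tested. At 126 to 150 bases, 3 of 4 Snord, 1 of 36 Snora and 0 of 3 Scarna genes had at least 10 first counts in every library. In the second quantification 4, 16 and 1 of them did. Other annotated genes of that length passed in 1.47% and 11.1%. By counts of the first quantification the Scarna class held 70.0% ± 3.14 (SD, n = 3) of the member total, the Snord class 16.4% ± 2.9 and the Snora class 13.6% ± 5.68. By TPM the Snord class came first with 65.3% ± 19.6, followed by the Snora class with 21.2% ± 16.9 and the Scarna class with 13.5% ± 2.91. The Snord share was 75.2%, 42.7% and 77.9% in replicates 1, 2 and 3, so in replicate 2 it was close to the Snora share of 40.7%. Snord22, whose effective length is described below, added no TPM in that library. Snora was clearly above Scarna by TPM in replicate 2 alone (40.7% against 16.5%), with 11.7% against 13.1% in replicate 1 and 11.3% against 10.7% in replicate 3. The second quantification had Scarna (30.6% ± 2.42) above Snora (21.7% ± 8.03) on average. Scarna exceeded Snord in summed CPM by 1.89, 2.32 and 2.12 on the log2 scale in replicates 1, 2 and 3, and exceeded Snora by 2.83, 1.72 and 2.77. Snora against Snord had no common direction, at -0.93, 0.60 and -0.65, and the mean of -0.33 was within its SD of 0.814. The Snora share of annotated counts was 0.0208%, 0.0400% and 0.0179%, so replicate 2 alone placed Snora above Snord. With 3 libraries no sign test over them can reach 0.05, and none was made.

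**Figure D2:**
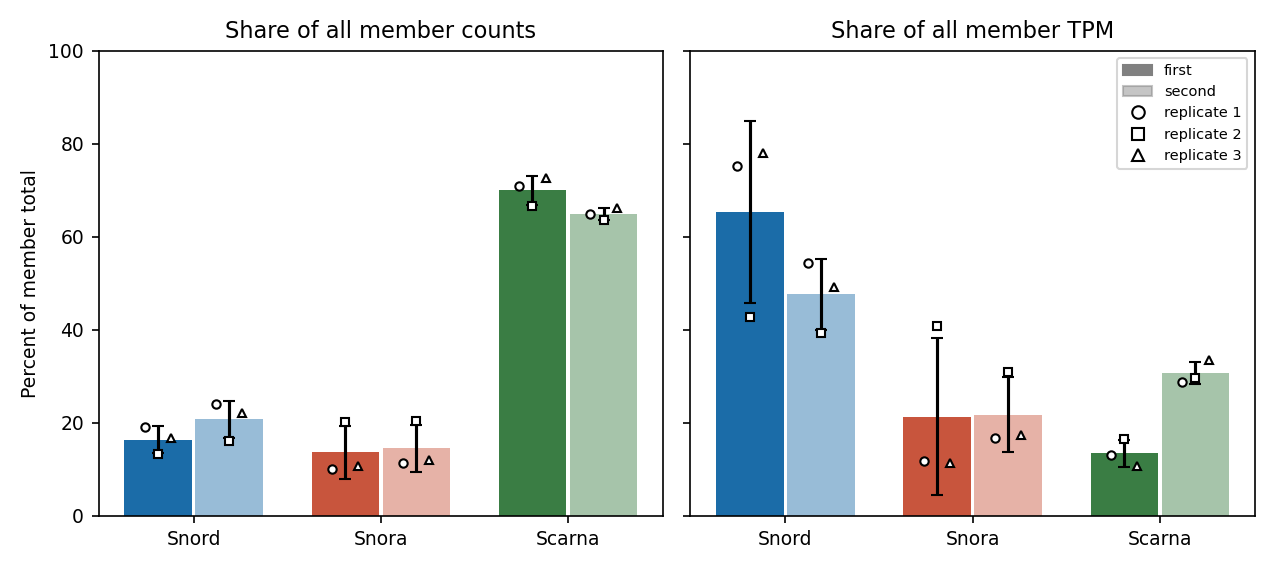
Share of each name class in the summed counts (left) and summed TPM (right) of all members, in percent. Dark bars are means of the first quantification and light bars of the second, error bars are SDs over 3 libraries, and markers are the libraries. Scarna bars are highest for counts (70.0% and 64.8%) and Snord bars are highest for TPM (65.3% and 47.7%).

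The median member gave another order. The median Snord gene was at 0 CPM in every library of the first quantification, and the median Snora gene at 0.0741, 0.115 and 0.0774 CPM, below the 3-count limit. The median Scarna gene was at 0, 0.224 and 0. As median log2(TPM + 1), Snora exceeded Snord by 5.29, 5.01 and 5.36. However, 93 of 98 Snord genes had an effective length of 0 in every library, where the TPM can only be 0. The Snord median was thus fixed at 0, and nothing is read from this difference. Among members with at least 10 counts in every library (4 Snord, 5 Snora and 4 Scarna genes) the median TPM ran the other way, highest in Snord (11890, 5715 and 17270) and lower in Snora (1705, 6278 and 1885), except in replicate 2. In the second quantification the class medians were 6.4 ± 2.26 TPM for Snord, 28.5 ± 4.62 for Snora and 158 ± 64 for Scarna, in that order in every library. The Snord median there was 0.0902, 0.0586 and 0.141 CPM, where 3 counts are 0.145, 0.0937 and 0.0997 CPM. It thus lay under that limit in replicates 1 and 2, and its TPM rests on few counts.

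Effective length followed member length. In the first quantification 96, 102 and 96 members had an effective length of 0, and 96 of them had it in every library. The longest member at 0 measured 121, 128 and 121 bases in replicates 1, 2 and 3, and the shortest above 0 measured 126, 129 and 126. Of the members at 0 in every library, 93 were Snord, 1 Snora and 2 Scarna genes. In the second quantification no effective length fell below 14.9. All members with an effective length of 0 had a TPM of 0, also where they had counts. Snora26, 121 bases long, had 40.0, 16 and 18 counts at a TPM of 0 in each library.

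**Figure D3:**
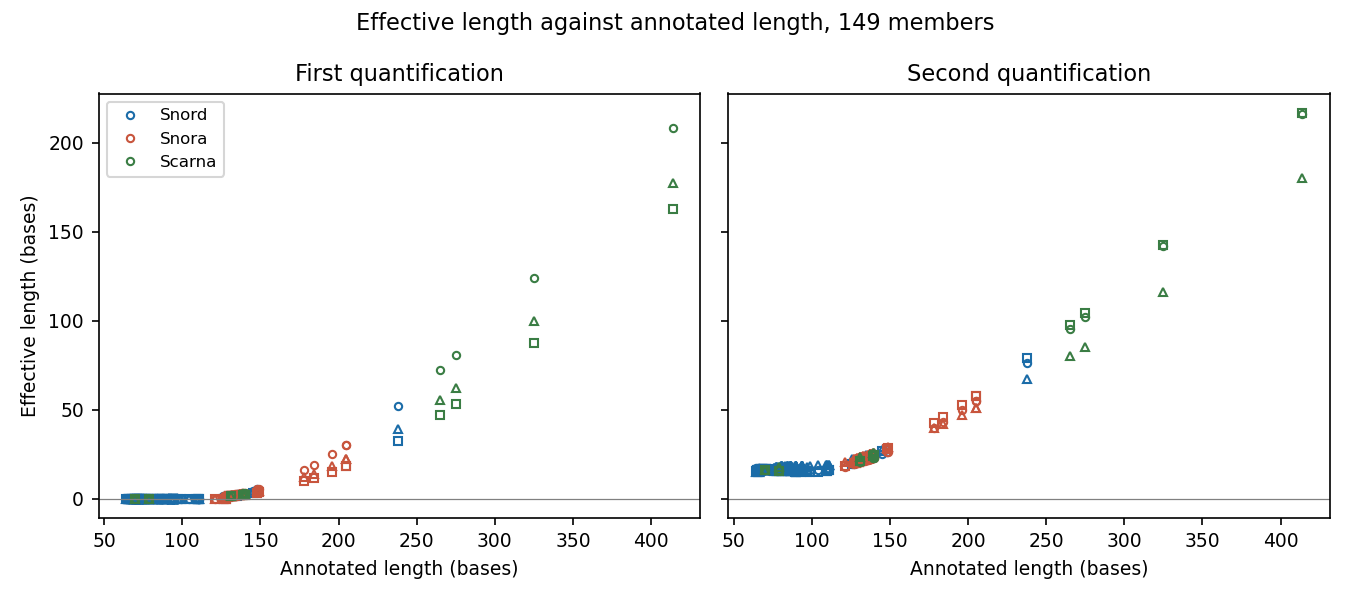
Effective length against annotated length of the 149 members in both quantifications, in bases. Each marker is 1 member in 1 library (circle, square and triangle for replicates 1, 2 and 3). Members shorter than 122 bases lie at 0 on the left, and none lies below 14.9 on the right.

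Just above that length the TPM of few counts became large. Beside the 96 members at 0 in every library and 6 at 0 in some, 37 had an effective length above 0 in every library with a mean under 6, and 10 had a mean of 6 or more. Snord22, 126 bases long, had an effective length of 1.18, 0 and 1.05, and a TPM of 18369, 0 and 48741. Replicate 2 was at a TPM of 0 with 752 counts, while its CPM there lay between those of the other libraries. Snord15b, 145 bases long, had an effective length of 4.4, 2.89 and 3.57 and a TPM of 41781, 26141 and 27949, above Scarna10 (10281, 8436 and 8638) in every library. Scarna10 had 6.95 to 9.78 times the CPM of Snord15b. Snora78, 128 bases long, had a TPM of 106, 0 and 234 and had its highest count, 62.0, in the library with a TPM of 0. All members together held 9.69% ± 1.2 of TPM in the first quantification and 2.48% ± 0.535 in the second.

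Detection moved with the rule and the table. In the first quantification 25 members (16.8%) reached a TPM of 1 in every library, and 23.0% of all annotated genes did. These were 3 of 98 Snord, 18 of 42 Snora and 4 of 9 Scarna genes. Members with an effective length of 0 in any library could not pass this rule. Only 47 members could pass it: 4 Snord, 36 Snora and 7 Scarna genes. The outcome for the rest was fixed by length, and nothing is read from the share below that of all genes. At least 10 counts in every library were found for 13 members (8.72%), against 25.4% of all annotated genes. In the second quantification 89 members (59.7%) passed the TPM rule, against 35.7% of all genes in that table, and 57 (38.3%) passed the count rule, against 40.7%. By class the count rule was passed there by 29 of 98 Snord, 21 of 42 Snora and 7 of 9 Scarna genes. All 13 members that passed the count rule in the first also passed it in the second, 44 passed it in the second only, and 92 in neither. Counts were 0 in every library for 110 members in the first and 40 in the second.

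Members that passed the count rule only in the second quantification lay on both sides of the length at which the effective length left 0. All 89 members of 100 bases or less had 0 counts in the first, as had all 2359 other annotated genes of that length. In the second, 23 of the 89 (25.8%) had at least 10 counts in every library, against 9.41% of the other genes. Of 7 members longer than 100 and shorter than 126 bases, 1 passed in the first and 4 in the second, against 0.0449% and 8.49% of other genes. Among the 43 members of 126 to 150 bases, 4 passed in the first and 21 in the second, against 1.47% and 11.1% of other genes. Among the 10 longer members, 8 and 9 passed. The other annotated genes of 151 to 414 bases passed in 2.18% and 10.8%.

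**Figure D4:**
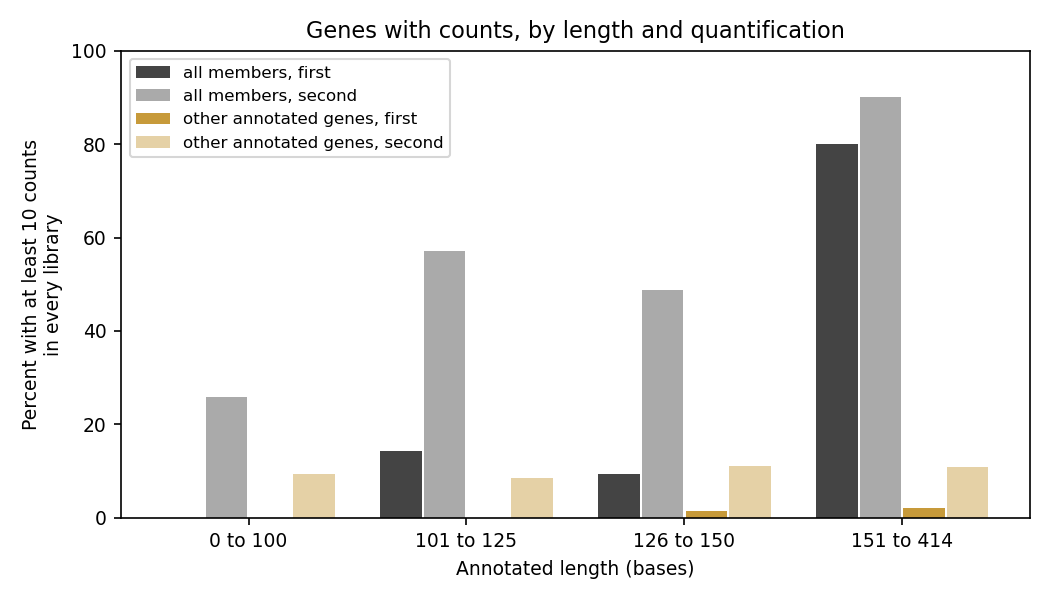
Percent of genes with at least 10 counts in every library, by annotated length in bases. Dark and light grey bars are members in the first and second quantification, and dark and light yellow bars are all other annotated genes. Below 101 bases both dark bars are at 0, while 25.8% of members pass in the second quantification.

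Before scaling to library totals, counts of the leading members were close between the tables. The totals were not: they were 13502401 in the first and 20661903 in the second for replicate 1. For replicate 2 they were 17848798 and 32013772, and for replicate 3 17824176 and 30098148. The share of all members in annotated counts was 0.191% ± 0.0214 in the first and 0.139% ± 0.0179 in the second. For the 11 members with the highest counts the second count was between 1.02 and 1.61 times the first in each library, with a mean ratio of 1.07 ± 0.0461 for Scarna10 and 1.46 ± 0.171 for Snord22. The count ratio of Snora68 was higher, at 2.41 ± 1.07. Some members long enough to have an effective length above 0 had far higher counts in the second. Snora31, 130 bases long in an intron of Tpt1, had 1.00 count in each library of the first and 98, 86 and 119 in the second. Snora62, 149 bases long in an intron of Rpsa, had 0 and 29, 28 and 24. Snora23, 184 bases long in an intron of Ipo7, had 17, 12 and 9 against 103, 57 and 65. None of these 3 shared a 31-base word with another transcript; they were chosen after their values were seen.

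**Figure D5:**
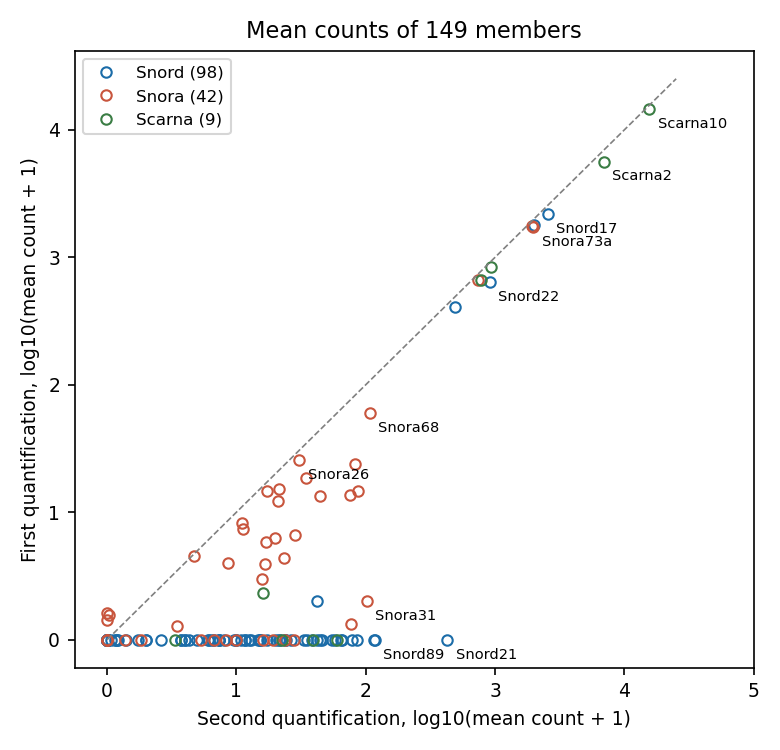
Mean count over 3 libraries of each member in the first against the second quantification, both as log10(count + 1), coloured by class. The dashed line marks equal counts. Members with the highest counts lie near the line, and a row of members lies at 0 in the first with counts in the second, Snord21 farthest to the right.

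The TPM of both quantifications were compared within each library with limma over 23890 genes (Benjamini-Hochberg adjusted p under 0.05 and a difference of at least 1 on the log2(TPM + 1) scale). Both tables come from the same reads, so this tests the tables against each other. Of 110 members tested, 23 were higher in the first, against 0.653% of all genes tested, and 63 were lower, against 36.9%. The lower calls are largely fixed by the effective length: 51 of the 63 (48 Snord, 1 Snora and 2 Scarna genes) were at 0 in every library of the first table, where the TPM can only be 0 and the difference only negative. Nothing is read from those calls. Among the 45 tested members with an effective length above 0 in every library, 22 were higher and 11 lower, with a median difference of 1.05, and the median over all genes was -0.70. By class, 3 of 4 Snord genes were higher and none lower, 17 of 34 Snora genes were higher and 9 lower, and 2 of 7 Scarna genes were higher and 2 lower. Without replicate 2 the higher calls of Scarna13, Scarna6, Snord17, Snora24 and Snora16a were lost, so no Scarna call of that direction was left, and without replicate 1 those of Snora43, Snora17, Snora24 and Snora16a were. Leaving genes of low values unfiltered left 4 of the 23 higher calls, and comparing CPM in place of TPM left none of them, with 8 of the 23 not tested on that scale.

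Among named members with higher TPM in the first, Snora5c, in Tbrg4, differed by 3.40 (SE 0.289, limma adjusted p = 0.000426). Snord15b differed by 3.34 (SE 0.29, limma adjusted p = 0.000461) and Snora68 by 3.26 (SE 0.434, limma adjusted p = 0.00197). The difference was positive in 3 of 3 libraries for each. On the CPM scale these differences were 0.073, 0.58 and -0.26. Snora73a and Snora73b differed by 1.63 and 1.69, and Snord17 by 1.25. At the other end were Snord21, Snord89 and Snord83b, whose first TPM was fixed at 0, so that their difference restates the second TPM of 1252 ± 1136, 291 ± 84.2 and 283 ± 74.5. Scarna10 (0.88) and Scarna2 (0.44) did not reach a difference of 1. Snord22 gave 3.69, -10.75 and 4.48 in replicates 1, 2 and 3, with a mean of -0.86 and an SE of 3.1, so its difference was within its spread. Snora78 did likewise, at 0.13, -8.26 and 2.01.

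Genes of the snoRNP proteins, which the members need to form particles, were measured beside them. Of 23 core and assembly genes, 21 reached a TPM of 1 in every library of the first quantification. Among the box C/D proteins Nop56 was at 32.7 ± 1.26 TPM, Nop58 at 15.6 ± 0.545, Fbl (the methyltransferase) at 11.4 ± 2.87 and Snu13 at 4.09 ± 0.863. Among the box H/ACA proteins Dkc1 (the pseudouridine synthase) was at 8.42 ± 3.55, Gar1 at 5.97 ± 0.507, Nhp2 at 2.77 ± 0.433 and Nop10 at 1.13 ± 0.474. Coil, the Cajal body scaffold, was at 2.98 ± 0.564, and Wrap53, which binds the CAB box, at 3.74 ± 0.476. Of the 23, 5 were lower by limma in the first table (Znhit6, Pih1d1, Znhit3, Smn1 and Snu13), none was higher, and the median difference was -0.50. Over all genes tested, 36.9% were lower and the median was -0.70, so the 5 of 23 are below that share.

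By position, 75 members lay only in introns of a gene on the same strand, 65 lay in an exon of at least 1 transcript of such a gene, and 9 had no such host. Hosts were protein-coding for 91 members and noncoding for 49. The 9 without a host included Scarna2, Scarna17, Snord118, Snord13 and Snord104. Of 90 host genes, 82 reached a TPM of 1 in every library, with a median of 19.0 TPM. Per length, by TPM of the second quantification, some members stood far above their host. Snhg10, the host of Scarna13, was at 0.543, 2.73 and 1.47 TPM where Scarna13 was at 393, 405 and 390. Snhg9 was at 0, 3.91 and 5.28 TPM where Snora78 was at 153 ± 133. In the first quantification Snhg10 had 0, 3 and 2 counts and Snhg9 had 0, 1 and 1, so both hosts were near the limit. Snora78 also lies on the strand opposite to Rps2. Hspa8, at 85.8 ± 31.2 TPM, was close to the Snord14 copies it holds, at 132 ± 7.27 for Snord14d and 112 ± 31.9 for Snord14c. Of 87 hosts tested, 12 were lower in the first table and none was higher (median -0.14), again below the 36.9% lower over all genes.

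Members differed in how much sequence they share. Of the 149, 48 shared no 31-base word with another annotated transcript, 24 shared some and 77 shared all. In the second quantification 29 of the 48 (60.4%) had at least 10 counts in every library, 10 of the 24 (41.7%), and 18 of the 77 (23.4%). The share over all genes of that quantification was 40.7%, close to that of the 24. The first quantification had no such order by shared words, with 4 of 48, 2 of 24 and 7 of 77. All 89 members of 100 bases or less had 0 counts there, as had the 2359 other genes of that length. Nothing is therefore read from the lack of an order. Without the Snord116 cluster the second-quantification share among members with all words shared was 18 of 63 (28.6%). Within the Snord class the second-quantification counts were 21 of 36 with no shared word and 7 of 53 with all shared. Within the Snora class they were 5 of 8 and 11 of 24, against 0 of 8 and 5 of 24 in the first.

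The spread between libraries was described by the biological coefficient of variation (BCV, the square root of edgeR's dispersion). The 14 members fitted had a median BCV of 0.255, and all 14193 genes fitted had 0.203. The highest were Snora68 at 0.507, Scarna2 at 0.39 and Snora73a at 0.383, at or above 99.8%, 99.3% and 99.2% of all genes. The near-identical Snora73b was at 0.249 (86.4%). The part of the uncertain split between these copies in the value of Snora73a was not tested. The lowest were Snord15a at 0.181 and Snord17 at 0.183. Snora68, Scarna2 and Snora73a were all highest in replicate 2, and without that library the member median was 0.192 against 0.207 for all genes. It was 0.234 against 0.24 without replicate 3, and 0.173 against 0.165 without replicate 1, so the order of members and all genes turned with 2 of the 3 libraries. Replicate 2 also had the lowest input RNA and the highest share of the ribosomal RNA locus, and the part of these in the result was not tested.

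The classes leaned to different libraries. Of 29 Snord genes with at least 10 counts in every library of the second quantification, 23 were lowest in replicate 2 by CPM (79.3%), and so were 50.6% of all genes that passed. Of 21 Snora genes, 11 were highest in replicate 2 (52.4%), against 17.6% of all genes. With the ribosomal RNA locus left out of the library totals, 17 of the 29 Snord genes were lowest in replicate 2 (58.6%), against 23.6% of all genes, and 14 of the 21 Snora genes were highest there (66.7%), against 43.8%. Of 7 Scarna genes 5 were highest in replicate 2 on that scale. These are counts over genes of 3 libraries, without a test.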

How the data were processed

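RNA of the chromatin fraction was measured in 3 libraries of 1 group, so no comparison between conditions was made. The deposited gene tables hold expected counts, TPM, posterior mean TPM, length and effective length per gene, and the deposited transcript tables hold estimated counts and TPM, per the file headers. The notes deposited beside the files name mm10 and GENCODE M21. Aligner, program versions and strandedness: not given in the sources used here. Thus reads of a member, its host and an antisense gene may not be separable. Rows that are no annotated gene (1.75%, 0.396% and 0.239% of first counts) stayed out of totals. The second table lacks 86 annotated genes, none a member.

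Within-library differences in log2(TPM + 1) were tested with limma 3.58.1 over genes with a TPM of at least 1 in some library of either table. Dispersion was estimated with edgeR 4.0.16 on rounded expected counts after filterByExpr and TMM, with DESeq2 1.42.0 as an alternative (R 4.3.3). Python 3.11.15 with pandas 2.3.3, numpy 2.4.6, scipy 1.17.1 and matplotlib 3.10.9 did the rest. The limma and edgeR steps were tested on simulated data. Poisson intervals are at 95%. Shared sequence was counted as 31-base words.

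Members named were the 8 Snord, 6 Snora and 4 Scarna genes with the highest mean CPM (ties at 0 ordered by the second table), the 3 with the highest mean TPM, the 3 largest and 3 smallest differences between tables among members with 10 counts in every library of either, the 3 highest BCV, and members of known role. Motif backgrounds use promoter windows (250 bases before to 50 after a start) in place of the planned windows upstream of each member, since no genome sequence was used here. The members and lists were chosen with earlier results of these data known.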

Additional observations from a re-analysis of the deposited data

How the results depend on the processing

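The count of members that reached a TPM of 1 in every library (25) gave 13 with a rule of 10 counts, 47 with posterior mean TPM, 89 in the second quantification and 78 over all snoRNA and scaRNA genes. In the second quantification Scarna minus Snord in summed CPM was 1.67 (log2), and the differences of class medians were 3.55 (Scarna minus Snord, CPM), 1.81 and 2.38 (Scarna minus Snora, CPM and TPM, both with the sign turned), 1.74 and 2.03 (Snora minus Snord, CPM and TPM). Restricted to members with at least 10 counts in every library, the sign turned for Scarna minus Snord in TPM (-2.97), Scarna minus Snora in CPM (1.56) and Snora minus Snord in CPM (-0.65) and TPM (-1.74). Median Snora minus Snord was 0.12 with a pseudocount of 1 on CPM, 1.10 without the ribosomal RNA locus and 8.51 with a pseudocount of 0.1 on TPM. The Snord median behind the last of these was fixed at a TPM of 0. Members higher in the first quantification fell from 23 to 4 without the filter and to 0 on the CPM scale, where 50 members were tested and 23 were lower. The median BCV of members was 0.435 with no filter on low counts. Single members changed sign on the CPM scale (Snord22 0.20, Snora68 -0.26, Snora26 0.24) and without replicate 2 (Snord22 4.09, Snora78 1.07); without replicate 3 they were -3.53 and -4.07. The cause was not tested, except that restricting members and dropping filters changes which genes enter. The other 88 values of these results moved by less than their spread or stayed within 1.5 times. Mean CPM of 14 of 25 named members moved by more than their SD in the second quantification. Leaving out 1 library cannot move a mean of 3 values by more than their SD. The class differences (among the 88) and mean CPM therefore had to stay within that limit without any 1 library, and nothing is read from it. No paired analysis of sample groups was possible because all libraries belong to 1 group. At or under 3 counts in every library stood 117 of 149 members in the first quantification and 54 in the second, from the same reads.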
